A study of Arabidopsis thaliana with 9 samples.

Results

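The 32 genes described here are the nuclear genes for subunits of photosystem I (PSA), photosystem II (PSB), the cytochrome b6f complex, plastocyanin, ferredoxin, ferredoxin-NADP reductase (FNR) and the plastid ATP synthase of Arabidopsis thaliana. They were picked by locus identifier from 33602 loci in the deposited tables, and all 32 passed the filter on low counts that left 18216 loci for testing. By role they were 12 photosystem I genes, 5 genes of the oxygen-evolving complex of photosystem II, 6 other photosystem II genes, 3 ATP synthase genes, 3 genes of cytochrome b6f and plastocyanin, and 3 of ferredoxin and FNR. The choice used their known function and was made with earlier results of these data known.

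RNA came from leaves of plants 4 to 5 weeks old in 3 genotypes, each with 3 libraries that the labels call independent biological replicates. The ddm1 plants were homozygous mutants, ddm1(-/-), of the 2nd generation. The F1 plants (Col-0 X ddm1, genotype DDM1/ddm1) came from a cross of the wild type with the mutant and carried 1 mutant allele. The WT plants were Col-0, the accession that also gave 1 parent of the F1. DDM1 is a chromatin remodeller that maintains DNA methylation, and the series was made to compare transposon RNA in F1 and ddm1 leaves with the wild type. The generation of the ddm1 parent of the F1, the time of day at harvest and any growth or sequencing batch were not given in the sources used here.

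Photosystem II uses light to take electrons from water at its oxygen-evolving complex and passes them through plastoquinone to the cytochrome b6f complex. Plastocyanin carries them on to photosystem I, which reduces ferredoxin, and FNR then makes NADPH, while the proton gradient across the thylakoid membrane drives the ATP synthase. The core proteins of these complexes are encoded in the chloroplast, whereas the subunits described here are encoded in the nucleus, made in the cytosol and imported, and their transcripts are among the most abundant in leaves and respond to light and to the circadian clock.

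Total estimated counts ranged from 15996806 to 22425699 per library, of which nuclear loci held 5212809 to 7574828. Organelle loci took 67.2% ± 0.854 of the counts in ddm1, 71.6% ± 1.13 in F1 and 67.3% ± 2.33 in WT (SD, n = 3 each). The transcript of DDM1 itself was too scarce to check the genotype labels, with 1, 2 and 2 estimated counts in ddm1, 2, 0 and 8 in F1 and 3, 12 and 5 in WT. The 5 leaf mesophyll markers had a summed level of 5840 to 12000 CPM in ddm1, 1440 to 1930 CPM in F1 and 7030 to 12600 CPM in WT, where CPM is estimated counts scaled to a common library total of 1e6 with TMM factors. The root marker COBL9 and the seed markers CRA1 and OLEO1 were at 0 in all 9 libraries, and the petal marker AP3 was at 0 in 8 of them. The 32 genes themselves had 530 to 20614 estimated counts per gene and library in ddm1, 80 to 11518 in F1 and 397 to 27562 in WT.

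Transcripts of the photosynthetic complexes were lower in F1 leaves than in either parent genotype, and no difference between ddm1 and WT leaves passed the test. The 32 genes together held 2.09%, 2.01% and 3.33% of nuclear estimated counts in the ddm1 libraries, 0.730%, 0.644% and 1.32% in the F1 libraries, and 2.82%, 3.79% and 1.96% in the WT libraries. Every F1 library thus lay below every library of the other genotypes, while ddm1 and WT overlapped. The group means were 2.48% ± 0.740 in ddm1, 0.898% ± 0.368 in F1 and 2.86% ± 0.918 in WT (SD, n = 3 each), and all 6 roles had their lowest mean in F1. In bulk leaf RNA, fewer cells of a type and less RNA per cell cannot be told apart.

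**Figure D1:**
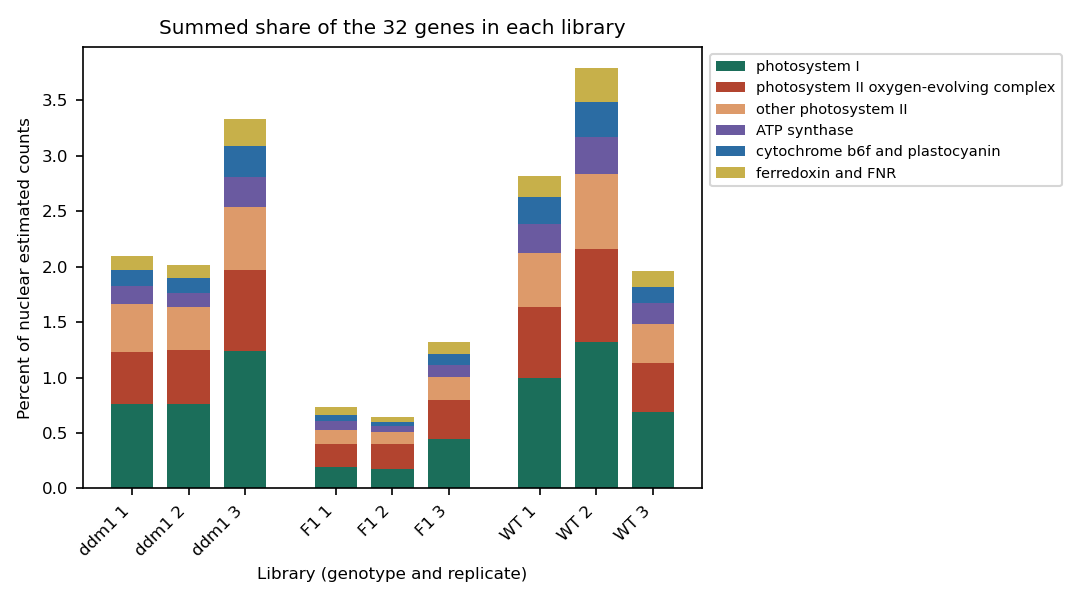
Stacked bars give, for each library, the percent of nuclear estimated counts held by the 32 genes, coloured by role. The F1 bars reach 0.730%, 0.644% and 1.32%, all below the lowest ddm1 bar (2.01%) and the lowest WT bar (1.96%).

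Between F1 and WT, 25 of the 32 genes fell and 0 rose (edgeR's quasi-likelihood test, adjusted p under 0.05 over all tested loci), where 9.66% of all tested loci were called lower and 13.5% higher. All 32 fitted log2 fold changes were below 0, with a median of -1.78 against 0.12 over all tested loci, and 30 genes had an unadjusted p under 0.05. For 27 genes the 3 F1 libraries all lay below the 3 WT libraries, as they did for 17.3% of all tested loci, and for 0 genes they all lay above (25.6% of all tested loci). The mean F1 level was between 6.83% (PSBS) and 91.4% (PSAE2) of the WT level, with a median of 29.1%. The count of calls rested on single F1 libraries: it was 11 without F1 replicate 1 and 13 without F1 replicate 2, and 11 of the 25 calls held whichever library was left out.

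Between ddm1 and F1, 21 genes were higher in ddm1 and 0 lower (edgeR), beside 10.3% of all tested loci called higher and 6.21% lower. The log2 fold changes ran from 0.33 (PSAE2) to 3.52 (PSBS), with a median of 1.72 against 0.02 over all tested loci, and 30 had an unadjusted p under 0.05. All 3 ddm1 libraries lay above all 3 F1 libraries for 30 genes, the exceptions being PSAE2 and FD2, while 20.9% of all tested loci did so and 18.7% had the reverse order, which none of the 32 genes had. This count too rested on single libraries, with 3 calls without F1 replicate 1 (those of PSAO, PSBS and PETE1), 7 without F1 replicate 2 and 14 without ddm1 replicate 3.

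Between ddm1 and WT, 0 of the 32 genes were called by edgeR, by DESeq2 or by limma on the deposited TPM, and 0 had an unadjusted p under 0.05 in edgeR, where 6.87% of all tested loci were called higher and 0.5% lower. The median log2 fold change was -0.04 (0.03 over all tested loci), and single values ran from -0.65 (FD2, SE 0.66) to 0.38 (PETE1, SE 0.43). Standard errors between 0.23 (PSBR) and 0.70 (ATPD) set how small a difference could have been seen. PSBR was the 1 gene of the 32 whose ddm1 libraries all lay above the WT libraries, an order that 12.4% of all tested loci had, and 0 genes had the reverse order (5.6% of all tested loci).

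Against the mean of ddm1 and WT, F1 was lower for 28 of the 32 genes and higher for 0 (edgeR), beside 10.3% of all tested loci called lower and 14.8% higher. PSAE2, PSBR, PSBTN and FD2 were not called. The median log2 fold change was -1.71, against 0.11 over all tested loci. The count was 11 without F1 replicate 1 and 13 without F1 replicate 2. The 4 comparisons share libraries, so their values stand side by side and are not independent of each other.

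**Figure D2:**
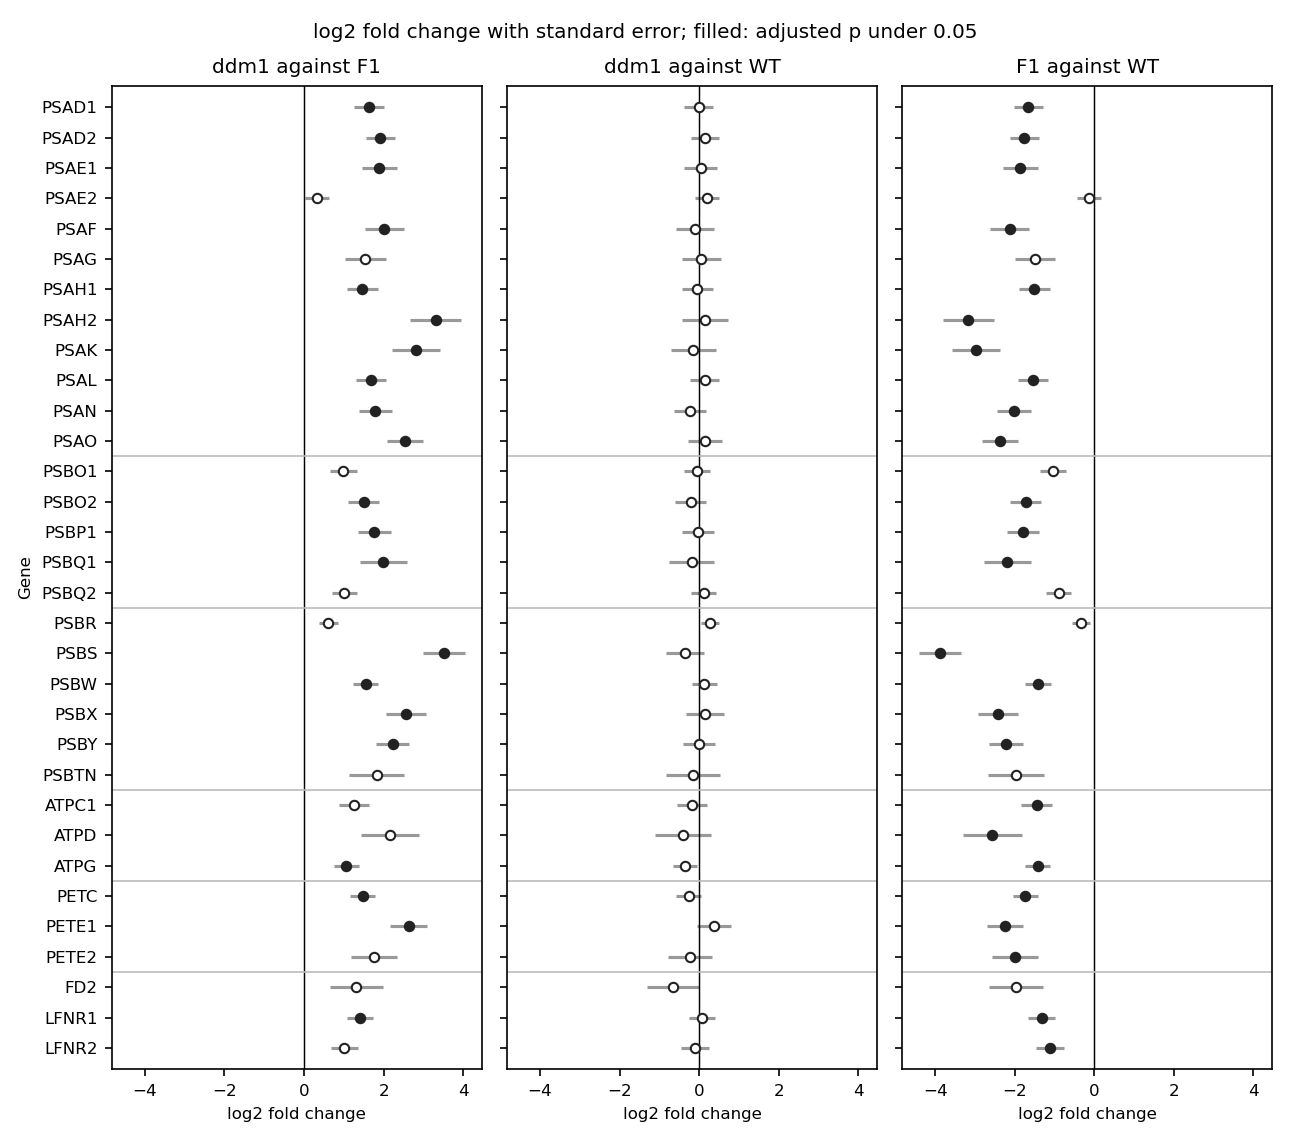
Points give the log2 fold change of each gene from edgeR in the 3 pairwise comparisons, bars its standard error, and filled points an adjusted p under 0.05. For ddm1 against F1, 21 points are filled to the right of 0, for ddm1 against WT 0 are filled, and for F1 against WT 25 are filled to the left of 0.

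The 250 bases before the annotated start of a gene hold part of its promoter, and in 14 of the 32 genes these bases are clear of other annotated genes. Among those 14, the windows of the extremes of the response are shown: PSBS and PSAK, with the largest falls in F1 against WT, and PSBR and PSBQ2, with the smallest differences, which were not called. PSBS (AT1G44575) lies at chr1:16870221-16873427, PSAK (AT1G30380) at chr1:10722183-10723247, PSBR (AT1G79040) at chr1:29735952-29737009 and PSBQ2 (AT4G05180) at chr4:2671523-2673243. The windows were read from RefSeq's TAIR10.1 assembly, in the direction of transcription, and capitals mark matches on either strand to the G-box CACGTG, the I-box core GATAAG, the CCA1-binding site AAAAATCT and the evening element AAAATATCT.
PSBS (chr1:16869971-16870220, + strand): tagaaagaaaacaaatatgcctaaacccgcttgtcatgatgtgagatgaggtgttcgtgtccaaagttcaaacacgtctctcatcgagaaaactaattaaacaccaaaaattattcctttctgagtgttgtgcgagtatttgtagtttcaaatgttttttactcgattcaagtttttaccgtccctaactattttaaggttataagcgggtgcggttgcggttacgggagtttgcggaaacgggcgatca
PSAK (chr1:10721933-10722182, + strand): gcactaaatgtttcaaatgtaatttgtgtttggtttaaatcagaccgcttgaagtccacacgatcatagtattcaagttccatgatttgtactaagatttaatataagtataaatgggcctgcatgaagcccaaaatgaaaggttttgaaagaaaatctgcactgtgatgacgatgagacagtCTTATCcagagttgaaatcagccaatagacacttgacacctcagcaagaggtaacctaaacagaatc
PSBR (chr1:29735702-29735951, + strand): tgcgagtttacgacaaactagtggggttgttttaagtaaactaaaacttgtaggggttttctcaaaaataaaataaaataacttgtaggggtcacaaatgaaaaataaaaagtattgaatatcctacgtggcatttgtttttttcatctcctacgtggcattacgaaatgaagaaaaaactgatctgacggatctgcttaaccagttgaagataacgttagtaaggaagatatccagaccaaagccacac
PSBQ2 (chr4:2673244-2673493, - strand): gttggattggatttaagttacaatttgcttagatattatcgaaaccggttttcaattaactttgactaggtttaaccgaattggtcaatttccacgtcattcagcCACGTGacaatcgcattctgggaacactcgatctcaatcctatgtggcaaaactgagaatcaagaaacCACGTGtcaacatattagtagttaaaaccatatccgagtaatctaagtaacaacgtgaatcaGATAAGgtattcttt
The PSBS and PSBR windows hold none of these motifs. The PSAK window holds 1 I-box core, on the reverse strand as GATAAG, which begins 67 bases before the gene. The PSBQ2 window holds 2 G-boxes, beginning 145 and 77 bases before the gene, and 1 I-box core 15 bases before it.

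Searched on both strands with overlaps allowed, the G-box was in 6 of the 32 windows (18.8%) and in 6.5% of the 27443 windows of all protein-coding genes. The I-box core, known from light-responsive plant promoters, was in 9 (28.1%, against 12.3% of all). The CCA1-binding site was in 2 windows, those of PSAN and PSAO (6.2%, against 6.7%), and the evening element in 1, that of ATPC1 (3.1%, against 2.4%). The TATA box motif TATAAA was in 16 (50.0%, against 47.3%). These are matches of letters in one window, whose members were chosen, and they describe no binding.

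Photosystem I contributed 12 genes, of which 10 fell in F1 against WT (median log2 fold change -1.81) and the same number were higher in ddm1 than in F1 (median 1.84). PSAD and PSAE form the stromal ridge where ferredoxin docks, each made from a pair of genes. PSAD1 (AT4G02770) had 281, 285 and 367 CPM in ddm1, 75.7, 63.1 and 161 CPM in F1 and 322, 371 and 249.9 CPM in WT leaves. PSAD2 (AT1G03130) had 209.8, 200.1 and 254 CPM in ddm1, 44.2, 40.6 and 91.5 CPM in F1 and 194, 257 and 148 CPM in WT leaves. PSAE1 (AT4G28750) had 118, 129.7 and 249 CPM in ddm1, 32.6, 36.7 and 64.4 CPM in F1 and 173, 219 and 93.2 CPM in WT leaves. In these 3 genes every F1 library lay below every library of the other genotypes. Their log2 fold changes in F1 against WT were -1.66 (SE 0.37, adjusted p = 0.0128), -1.77 (SE 0.36, adjusted p = 0.00853) and -1.86 (SE 0.44, adjusted p = 0.0156). PSAE2 (AT2G20260), the minor copy, had 29, 36.7 and 47.1 CPM in ddm1, 24.5, 24.5 and 40.4 CPM in F1 and 34.6, 40.5 and 22.7 CPM in WT leaves. The genotypes overlapped for PSAE2 in all 3 pairings, and its log2 fold change was -0.13 in F1 against WT (SE 0.30, adjusted p = 0.794) and 0.33 in ddm1 against F1 (SE 0.30, adjusted p = 0.48). The PSAD2 call in F1 held without any single library, whereas that of PSAD1 was lost without F1 replicate 1 and that of PSAE1 without F1 replicate 1 or 2.

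PSAF forms the lumenal site where plastocyanin docks and had the highest mean TPM (a level corrected for transcript length) of all 32 genes in ddm1, 1099 ± 499, and in WT, 1326 ± 526, with 258 ± 166 in F1 (SD, n = 3 each). In CPM, PSAF (AT1G31330) had 608, 617 and 1391 CPM in ddm1, 138, 165 and 344 CPM in F1 and 953, 1278 and 595 CPM in WT leaves. PSAN (AT5G64040), a lumenal subunit that helps plastocyanin react, had 86.9, 86.6 and 191 CPM in ddm1, 31.9, 35.9 and 37.7 CPM in F1 and 136, 209 and 82.9 CPM in WT leaves. Both fell in F1 without overlap, with log2 fold changes of -2.13 for PSAF (SE 0.50, adjusted p = 0.0152) and -2.02 for PSAN (SE 0.42, adjusted p = 0.00871). PSAN had the smallest spread within F1 of the 32 genes, its highest library being 1.18 times its lowest. The PSAF call was lost without F1 replicate 1 or 2, with an adjusted p of up to 0.0648.

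PSAG and PSAK anchor the light-harvesting antenna on the outer side of photosystem I. PSAK (AT1G30380) had 149, 155 and 309 CPM in ddm1, 18.5, 16.8 and 51.6 CPM in F1 and 224, 353 and 102 CPM in WT leaves. Its log2 fold change was -2.97 (SE 0.61, adjusted p = 0.00841) in F1 against WT. In ddm1 against F1 it was 2.82 (SE 0.60, adjusted p = 0.0169), a call lost without F1 replicate 1 or 2. No library of F1 overlapped those of the other genotypes. PSAG (AT1G55670) had 175, 190.3 and 395 CPM in ddm1, 60.1, 61.5 and 139 CPM in F1 and 260, 346 and 127 CPM in WT leaves, so that 1 F1 library lay above the lowest WT library. The difference of PSAG missed the threshold in F1 against WT (log2 fold change -1.49, SE 0.51, adjusted p = 0.0604) and in ddm1 against F1 (1.54, SE 0.51, adjusted p = 0.0665), and passed it against the mean of both (-1.52, SE 0.46, adjusted p = 0.0396). The last call was lost without any of 5 libraries, WT replicates 1 and 2, F1 replicates 1 and 2 and ddm1 replicate 3 (adjusted p of up to 0.157).

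PSAH, PSAL and PSAO form the side where light-harvesting complex II docks during state transitions. PSAH2 (AT1G52230) had 97.4, 79.6 and 187 CPM in ddm1, 8.90, 4.58 and 23.1 CPM in F1 and 119, 149.7 and 61.1 CPM in WT leaves. With log2 fold changes of -3.17 (SE 0.64, adjusted p = 0.00757) in F1 against WT and 3.31 (SE 0.64, adjusted p = 0.0114) in ddm1 against F1, it changed most among the photosystem I genes. Its ddm1 against F1 call was lost without F1 replicate 1. Its F1 libraries also differed most among themselves, the highest being 5.05 times the lowest. PSAH1 (AT3G16140) had 42.8, 39.8 and 62.3 CPM in ddm1, 13.7, 12.1 and 26.8 CPM in F1 and 54.9, 64.9 and 29.7 CPM in WT leaves. PSAL (AT4G12800) had 366, 352 and 483 CPM in ddm1, 95.5, 90.3 and 189.7 CPM in F1 and 389, 465 and 236 CPM in WT leaves. PSAO (AT1G08380) had 246, 267 and 419.8 CPM in ddm1, 34.5, 38.2 and 88.7 CPM in F1 and 264, 382 and 191 CPM in WT leaves. All 3 fell in F1 without overlap, with log2 fold changes of -1.51 (SE 0.39, adjusted p = 0.023), -1.54 (SE 0.38, adjusted p = 0.0183) and -2.37 (SE 0.45, adjusted p = 0.00584). The PSAH2 and PSAO calls in F1 against WT held without any single library, and those of PSAH1 and PSAL were each lost without any of 4 libraries, WT replicates 1 and 2 and F1 replicates 1 and 2, with adjusted p of up to 0.0933 and 0.0802.

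**Figure D3:**
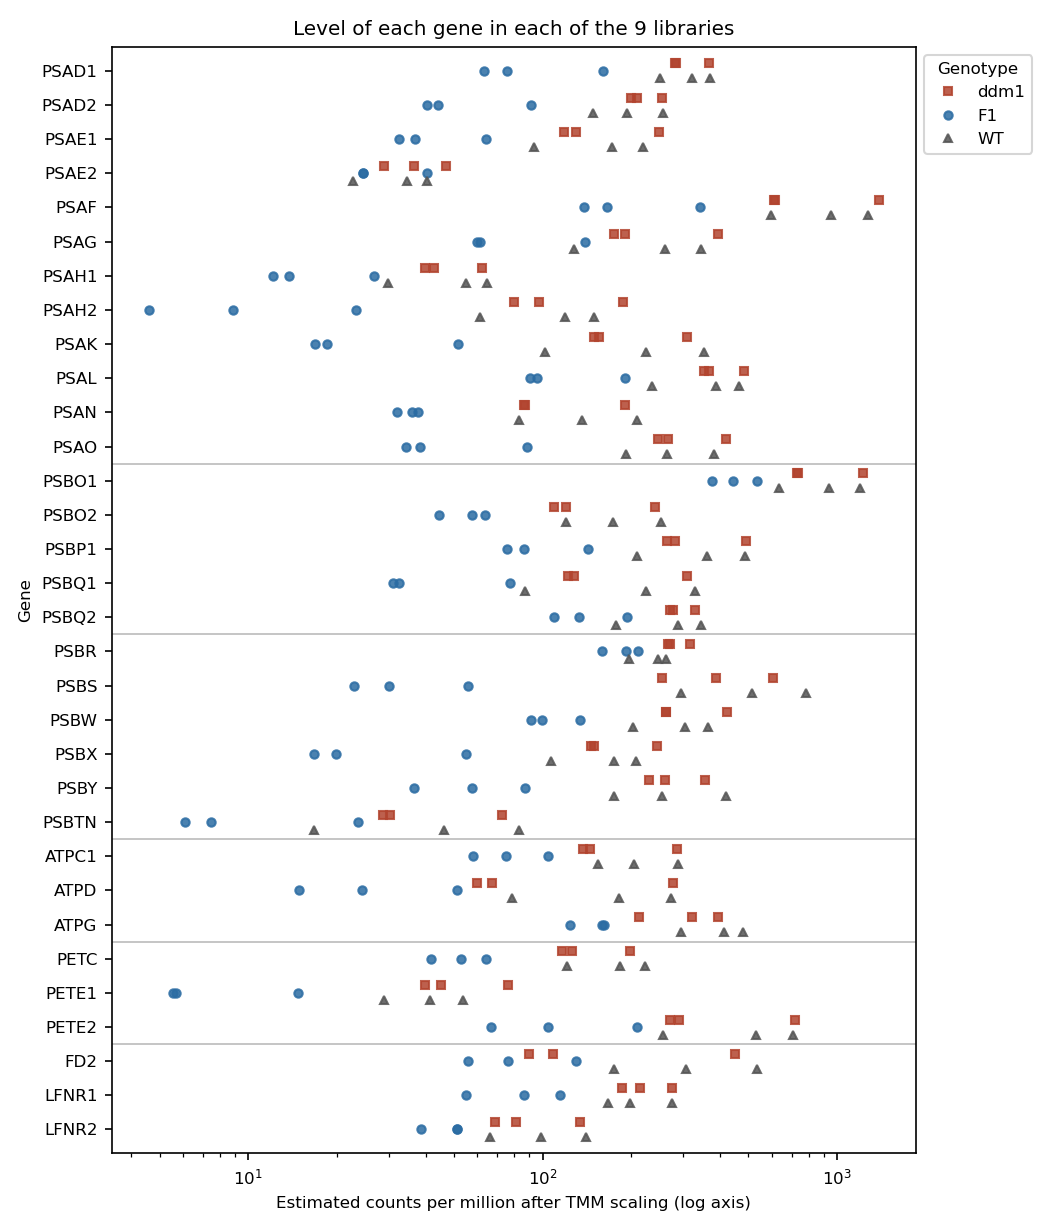
Each point is 1 library's level of 1 gene, in CPM on a log axis, with genes grouped by role between the grey lines. F1 points lie left of all ddm1 points for 30 of the 32 genes and left of all WT points for 27, and ddm1 and WT points overlap in every row except PSBR.

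In the oxygen-evolving complex, the lumenal cap of photosystem II that stabilises the manganese cluster, 3 of 5 genes fell in F1 against WT (median log2 fold change -1.72) and 3 were higher in ddm1 than in F1 (median 1.5). PSBO1 (AT5G66570), the major copy of the manganese-stabilising protein, had 739, 730.3 and 1220 CPM in ddm1, 376, 445 and 533 CPM in F1 and 938, 1200 and 635 CPM in WT leaves. PSBO2 (AT3G50820), the minor copy, had 109, 120 and 241 CPM in ddm1, 44.6, 57.7 and 63.9 CPM in F1 and 174, 253 and 119.8 CPM in WT leaves. No F1 library of either overlapped the other genotypes. PSBO2 fell (log2 fold change -1.72, SE 0.39, adjusted p = 0.0131), while PSBO1 missed the threshold in F1 against WT by little (-1.04, SE 0.33, adjusted p = 0.0503) and was called lower against the mean of ddm1 and WT (-1.01, SE 0.30, adjusted p = 0.0351). That call was lost without any of WT replicate 1 and F1 replicates 1 and 2 (adjusted p of up to 0.15). In F1 leaves PSBO1 had the highest mean TPM of the 32 genes, 380.4 ± 109, with 825 ± 209 in ddm1 and 942 ± 319 in WT (SD, n = 3 each).

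PSBP and PSBQ are the outer proteins of the same cap. PSBP1 (AT1G06680) had 265, 282 and 491 CPM in ddm1, 86.4, 75.8 and 143 CPM in F1 and 361, 488 and 209 CPM in WT leaves. PSBQ1 (AT4G21280) had 127, 122 and 310.3 CPM in ddm1, 31, 32.5 and 77.2 CPM in F1 and 224, 329 and 86.8 CPM in WT leaves. PSBQ2 (AT4G05180) had 271, 277 and 328 CPM in ddm1, 109, 133 and 194 CPM in F1 and 289, 344 and 178 CPM in WT leaves. PSBP1 and PSBQ1 fell in F1 without overlap, with log2 fold changes of -1.79 (SE 0.41, adjusted p = 0.014) and -2.18 (SE 0.60, adjusted p = 0.0289). The F1 libraries of PSBQ2 lay below all ddm1 libraries, and the highest of them lay above the lowest WT library. PSBQ2 was not called in F1 against WT (-0.90, SE 0.32, adjusted p = 0.0697) or in ddm1 against F1 (1.01, SE 0.32, adjusted p = 0.059), but was lower against the mean of both (-0.95, SE 0.29, adjusted p = 0.0374), a call lost without any of WT replicates 1 and 2 and F1 replicates 1 and 2 (adjusted p of up to 0.166). The 3 calls of this group in F1 against WT were all lost without F1 replicate 1, those of PSBP1 and PSBQ1 also without F1 replicate 2, and that of PSBQ1 also without WT replicate 1 or 2. Adjusted p went up to 0.0615 for PSBO2, 0.0637 for PSBP1 and 0.108 for PSBQ1. In ddm1 against F1 the PSBQ1 call (adjusted p = 0.0499) was kept in 3 of 9 fits with 1 library left out. Those of PSBO2 and PSBP1 were each kept in 6 of 9.

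Among the other 6 photosystem II genes, 4 fell in F1 against WT (median log2 fold change -2.10) and 4 were higher in ddm1 than in F1 (median 2.02). PSBS (AT1G44575), the sensor of lumen acidity that switches on the dissipation of excess light as heat, had 389, 254 and 604 CPM in ddm1, 30.1, 22.9 and 55.9 CPM in F1 and 515, 783 and 295 CPM in WT leaves. It had the largest change of the 32 genes, with log2 fold changes of -3.87 (SE 0.53, adjusted p = 0.00102) in F1 against WT and 3.52 (SE 0.53, adjusted p = 0.00463) in ddm1 against F1, or 14.6-fold lower in F1 than in WT. Both calls held without any single library. At the other end was PSBR (AT1G79040), a small photosystem II protein needed for stable binding of PSBP. It had 266, 317 and 271 CPM in ddm1, 159, 192 and 209.9 CPM in F1 and 247, 263 and 197 CPM in WT leaves. F1 overlapped WT for PSBR, and neither its difference from WT (log2 fold change -0.33, SE 0.23, adjusted p = 0.325) nor that of ddm1 from F1 (0.61, SE 0.23, adjusted p = 0.104) passed the threshold.

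PSBW stabilises the supercomplexes of photosystem II with its antenna, and PSBX and PSBY are small membrane subunits near cytochrome b559. PSBW (AT2G30570) had 262, 263 and 423 CPM in ddm1, 99.5, 91.2 and 134 CPM in F1 and 305, 363 and 202 CPM in WT leaves. PSBX (AT2G06520) had 146, 149.8 and 245 CPM in ddm1, 19.8, 16.7 and 54.7 CPM in F1 and 174, 208 and 107 CPM in WT leaves. PSBY (AT1G67740) had 261, 230.1 and 357 CPM in ddm1, 57.5, 36.7 and 87.1 CPM in F1 and 254, 418 and 174 CPM in WT leaves. The F1 libraries of all 3 lay below all others, and the log2 fold changes in F1 against WT were -1.42 (SE 0.32, adjusted p = 0.013), -2.42 (SE 0.50, adjusted p = 0.00861) and -2.22 (SE 0.42, adjusted p = 0.00585). The calls of PSBX and PSBY held without any single library, while that of PSBW was lost without F1 replicate 1 or 2 (adjusted p of up to 0.059). PSBTN (AT3G21055), a small lumenal subunit, had 28.7, 30.3 and 72.6 CPM in ddm1, 7.46, 6.07 and 23.6 CPM in F1 and 46.1, 83.2 and 16.7 CPM in WT leaves. It was not called in F1 against WT (-1.97, SE 0.70, adjusted p = 0.069), its highest WT library being 4.99 times its lowest.

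The chloroplast ATP synthase had 3 nuclear genes, which all fell in F1 against WT (median log2 fold change -1.45), and 1 of them, ATPG, was higher in ddm1 than in F1. ATPC1 (AT4G04640), the regulatory gamma subunit of the rotor shaft, had 145, 137 and 285 CPM in ddm1, 74.8, 58 and 104 CPM in F1 and 205, 288 and 154 CPM in WT leaves. ATPD (AT4G09650), the delta subunit that ties the catalytic head to the stator, had 67.4, 59.8 and 277 CPM in ddm1, 24.3, 14.9 and 51 CPM in F1 and 182, 272 and 78.5 CPM in WT leaves. ATPG (AT4G32260), a subunit of the membrane stator, had 321, 213 and 395 CPM in ddm1, 159, 124 and 162 CPM in F1 and 413, 481 and 296 CPM in WT leaves. F1 lay below WT and below ddm1 without overlap for all 3. The log2 fold change of ATPC1 was -1.45 (SE 0.38, adjusted p = 0.025) in F1 against WT and 1.26 (SE 0.38, adjusted p = 0.0519) in ddm1 against F1. For ATPD these were -2.56 (SE 0.74, adjusted p = 0.0348) and 2.16 (SE 0.73, adjusted p = 0.0725), and for ATPG -1.42 (SE 0.31, adjusted p = 0.0105) and 1.07 (SE 0.31, adjusted p = 0.0432). In ATPD 1 ddm1 library, replicate 3, stood well above the other two. The F1 against WT call of ATPG held without any single library. Those of ATPC1 and ATPD were each lost without any of WT replicates 1 and 2 and F1 replicates 1 and 2. Adjusted p went up to 0.0954 for ATPC1 and 0.119 for ATPD. The ddm1 against F1 call of ATPG was kept in 4 of 9 fits with 1 library left out (adjusted p of up to 0.151).

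Between the photosystems, PETC, the Rieske iron-sulfur protein of cytochrome b6f, and both plastocyanin genes fell in F1 against WT (median log2 fold change -1.98). PETC (AT4G03280) had 126, 116 and 197 CPM in ddm1, 52.6, 41.8 and 64.1 CPM in F1 and 182, 222 and 121 CPM in WT leaves. PETE1 (AT1G76100), the minor plastocyanin copy, had 39.8, 45 and 76.2 CPM in ddm1, 5.66, 5.56 and 14.8 CPM in F1 and 41.3, 53.6 and 28.8 CPM in WT leaves. PETE2 (AT1G20340), the major copy, had 290, 271 and 718 CPM in ddm1, 104, 66.6 and 209 CPM in F1 and 532, 711 and 256 CPM in WT leaves. The F1 libraries lay below all others for each of them. In F1 against WT the log2 fold change was -1.73 (SE 0.33, adjusted p = 0.00548) for PETC, -2.24 (SE 0.45, adjusted p = 0.00779) for PETE1 and -1.98 (SE 0.58, adjusted p = 0.0355) for PETE2. PETC and PETE1 were also higher in ddm1 than in F1 (1.47, SE 0.32, adjusted p = 0.0181 and 2.62, SE 0.46, adjusted p = 0.00806), whereas PETE2 missed the threshold there (1.75, SE 0.57, adjusted p = 0.0652). The PETC and PETE1 calls in F1 against WT held without any single library. That of PETE2 was lost without any of WT replicates 1 and 2 and F1 replicates 1 and 2 (adjusted p of up to 0.123). In ddm1 against F1 the PETE1 call held without any single library and the PETC call was lost without F1 replicate 1 or 2.

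On the acceptor side, FD2 (AT1G60950), the main leaf ferredoxin, had 90.1, 108 and 449 CPM in ddm1, 76.1, 55.9 and 129.9 CPM in F1 and 307, 536 and 175 CPM in WT leaves. Its F1 libraries lay below all WT libraries but overlapped ddm1, in which replicate 3 was 4.99 times the lowest library. FD2 was called in none of the 4 comparisons, with log2 fold changes of -1.96 (SE 0.68, adjusted p = 0.0647) in F1 against WT and 1.31 (SE 0.67, adjusted p = 0.207) in ddm1 against F1. LFNR1 and LFNR2 are the leaf isoforms of FNR. LFNR1 (AT5G66190) had 214, 186 and 275 CPM in ddm1, 86.4, 55 and 114 CPM in F1 and 198, 275 and 167 CPM in WT leaves. LFNR2 (AT1G20020) had 81.1, 68.8 and 134 CPM in ddm1, 51.3, 38.6 and 51.2 CPM in F1 and 98.9, 140.4 and 66.2 CPM in WT leaves. Both fell in F1 against WT without overlap, with log2 fold changes of -1.32 (SE 0.33, adjusted p = 0.0198) for LFNR1 and -1.11 (SE 0.35, adjusted p = 0.044) for LFNR2, and LFNR1 was also higher in ddm1 than in F1 (1.40, SE 0.33, adjusted p = 0.023). The LFNR2 call is near the threshold. It was lost without any of 5 libraries, all but WT replicate 3 among the F1 and WT libraries. The LFNR1 call in F1 against WT was lost without any of WT replicate 2 and F1 replicates 1 and 2. Adjusted p went up to 0.148 for LFNR2 and 0.0705 for LFNR1. In ddm1 against F1 the LFNR1 call was lost without any of F1 replicates 1 and 2 and ddm1 replicate 3.

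In 7 cases a subunit is made from a pair of genes, and the share of the first copy in the summed estimated counts of the pair shows whether both copies moved alike. PSAE1 held 80.3, 78 and 84.1% of the PSAE counts in the ddm1 libraries, 57.1, 60.02 and 61.4% in F1 and 83.3, 84.4 and 80.4% in WT. PSAH1 held 30.5, 33.3 and 25% of the PSAH counts in ddm1, 60.6, 72.5 and 53.7% in F1 and 31.6, 30.2 and 32.7% in WT. The F1 libraries stood apart from both other genotypes in these pairs, PSAE tilting towards its second copy and PSAH towards its first. PSBQ1 held 32, 30.6 and 48.6% of the PSBQ counts in ddm1, 22.1, 19.7 and 28.5% in F1 and 43.7, 48.9 and 32.8% in WT. PSBO1 held 87.2, 85.9 and 83.5% of the PSBO counts in ddm1, 89.4, 88.5 and 89.3% in F1 and 84.4, 82.6 and 84.1% in WT. These too had no overlap between F1 and the other genotypes, with smaller shifts. The difference of the mean shares between F1 and WT was -23.2 percentage points for PSAE, 30.8 for PSAH, -18.4 for PSBQ and 5.38 for PSBO. Each gave p = 0.1 in a two-sided exact permutation test, the smallest that 3 libraries against 3 allow, and an adjusted p of 0.191 over 21 tests (7 pairs in 3 comparisons), so none can be called.

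In the other 3 pairs F1 and WT overlapped. PSAD1 held 57.3, 58.7 and 59.1% of the PSAD counts in ddm1, 63.1, 60.9 and 63.7% in F1 and 62.4, 59.1 and 62.8% in WT, so that all ddm1 libraries lay just below WT and below F1. PETE1 held 12.1, 14.2 and 9.60% of the plastocyanin counts in ddm1, 5.17, 7.70 and 6.62% in F1 and 7.21, 7.01 and 10.1% in WT, with no overlap between ddm1 and F1. LFNR1 held a mean of 70.9% in ddm1, 63.5% in F1 and 68.2% in WT, with overlap in every comparison. Copies of a pair shared at most 5 words of 31 bases, at most 0.5% of either copy, in RefSeq's transcripts. Reads can also be shared with neighbours on the genome. PSAD2, PSAE1, PSAE2, PSAG, PSAH1, PSAH2, PSAN, PSBP1, PSBR and LFNR1 overlap another annotated gene, 9 of them on the opposite strand. The strand setting of the counting was not given in the sources used here, so their values are uncertain to the extent of the overlap. The overlap was 2 bases in PSAD2, shorter than a 31-base word. It was largest in PSAH1 (788 bases), PSAG (479) and PSAE1 (445), and PSAH1 and PSAE1 belong to the pairs in which F1 stood apart.

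**Figure D4:**
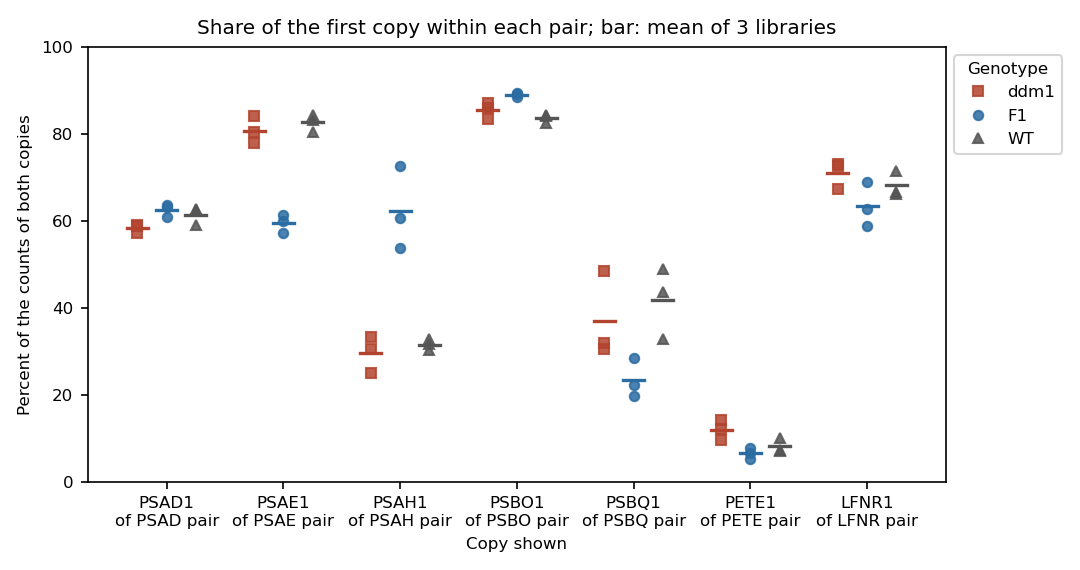
Points give, for each library, the percent of a pair's summed estimated counts held by its first copy, and horizontal bars the mean of 3 libraries. F1 points lie apart from both other genotypes for PSAE (mean 59.5%, against 80.8% in ddm1 and 82.7% in WT) and PSAH (mean 62.3%, against 29.6% and 31.5%).

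Within each genotype the genes moved up and down together between libraries. Replicate 3 was the highest ddm1 library for 31 of the 32 genes and the highest F1 library for 31, and WT replicate 2 was the highest and WT replicate 3 the lowest WT library for all 32. The highest library was at the median gene 1.89 times the lowest in ddm1, 2.24 times in F1 and 2.12 times in WT. Set against the WT mean of each gene on the log2 CPM scale, the median gene stood at -0.28, -0.27 and 0.54 in the ddm1 libraries, -2.02, -2.09 and -1.23 in the F1 libraries and 0.10, 0.51 and -0.56 in the WT libraries. The F1 library nearest to the other genotypes thus lay below the lowest of them, by a smaller distance than the WT libraries spanned among themselves.

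Other nuclear genes were taken from 5 lists of 51 genes in all. They cover assembly, electron flow, thylakoid structure, further subunits and isoforms, and regulators of photosynthesis genes. They were chosen by function with earlier results of these data known. In F1 against WT 22 fell and 1 rose (edgeR, median log2 fold change -0.99), beside 9.66% of all tested loci called lower and 13.5% higher. In ddm1 against F1 20 were higher and 1 lower in ddm1 (median 0.84), beside 10.3% and 6.21% of all tested loci. In ddm1 against WT 0 were called, where 6.87% of all tested loci were called higher and 0.5% lower. Without F1 replicate 1 the lower genes in F1 against WT numbered 13 and the higher genes in ddm1 against F1 numbered 9, and without F1 replicate 2 they numbered 15 and 9. The list of cyclic electron flow, the NDH complex and their regulation had 11 of 16 genes lower in F1, among them NDHN (-3.53, SE 0.27, adjusted p = 2.4e-05) and NDHL (-3.03, SE 0.35, adjusted p = 0.00031), subunits of the NDH complex, and PGRL1A (-2.39, SE 0.27, adjusted p = 0.000304), a carrier of cyclic flow around photosystem I. The same number were higher in ddm1 than in F1, with 3.15 for NDHN, 3.25 for NDHL and 2.31 for PGRL1A (adjusted p = 0.000776, 0.00149 and 0.0021).

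Of 15 assembly and repair factors, 6 fell in F1 against WT, beside 9.66% of all tested loci. In ddm1 against F1 4 were higher in ddm1, beside 10.3% of all tested loci. On the log2 scale HCF173, which aids translation of the D1 protein of photosystem II, stood at -1.96 (SE 0.24, adjusted p = 0.000426) in F1 against WT. HCF164, a thioredoxin-like factor of cytochrome b6f assembly, stood at -1.09 (SE 0.18, adjusted p = 0.00255), and HCF101, which places iron-sulfur clusters in photosystem I, at -2.03 (SE 0.41, adjusted p = 0.00817). Of 8 further subunits and isoforms 2 fell in F1 against WT, beside 9.66% of all tested loci. They were FD1, the minor leaf ferredoxin (-3.20, SE 0.60, adjusted p = 0.00548), and PPL1, a PSBP-like protein (-1.90, SE 0.51, adjusted p = 0.026). In ddm1 against F1 1 of the 8, FD1, was higher in ddm1, beside 10.3% of all tested loci. The median log2 fold change of the 8 was -0.075 there. The isoforms FD3, RFNR1, RFNR2 and CYTC6A were at 3.19 CPM or less in every library. Among 6 thylakoid structure genes, CURT1B and CURT1C, which curve the grana margins, fell (-2.32, SE 0.45, adjusted p = 0.00657 and -1.45, SE 0.35, adjusted p = 0.0178), and their relative CURT1D rose (1.35, SE 0.36, adjusted p = 0.0237). The calls of PPL1 and CURT1D were each lost without any of 4 libraries, F1 replicate 1 among them, and that of CURT1C without F1 replicate 1 or 2. Among 6 regulators 1, GLK2, an activator of photosynthesis genes, fell (-0.92, SE 0.23, adjusted p = 0.0208). GLK1 and GLK2 were both higher in ddm1 than in F1 (0.84, SE 0.24, adjusted p = 0.0407 and 0.80, SE 0.23, adjusted p = 0.0458). In F1 against WT 1 call among 6 genes is close to the share of all tested loci, 9.66% lower and 13.5% higher. The GLK2 call in F1 against WT was lost without F1 replicate 1, and the GLK1 and GLK2 calls in ddm1 against F1 were each lost without any of 6 libraries.

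Cell type markers moved with these results in part. All 5 leaf mesophyll markers fell in F1 against WT (median log2 fold change -2.43), beside 9.66% of all tested loci. In ddm1 against F1 4 of them were higher (median 2.20), beside 10.3% of all tested loci. Without F1 replicate 1 these counts were 2 and 2, and without F1 replicate 2 they were 3 and 2. The markers are photosynthesis genes themselves. The 3 guard cell markers summed to 11 to 11.8 CPM in ddm1, 13.7 to 17.7 CPM in F1 and 8.06 to 13.2 CPM in WT, and 1 of them, KAT1, was called higher in F1 than in WT, a call lost without any of 7 libraries. The 2 phloem companion cell markers summed to 227 to 266 CPM in ddm1, 234 to 271 CPM in F1 and 232 to 254 CPM in WT, with 0 calls in any comparison. The 2 epidermis markers summed to 27.0 to 32.2 CPM in ddm1, 11.2 to 21.7 CPM in F1 and 20.3 to 31.2 CPM in WT, PDF1 being at 0 in 7 of the 9 libraries. The other, ATML1, was not called in F1 against WT (-0.68, SE 0.26, adjusted p = 0.0919). It was called lower in F1 against the mean of ddm1 and WT (-0.75, SE 0.235, adjusted p = 0.0434). That call was kept in 3 of 9 fits with 1 library left out. The 3 root markers summed to 14.7 to 15.9 CPM in ddm1, 8.96 to 13.7 CPM in F1 and 12.2 to 19.7 CPM in WT. The 3 flower and pollen markers summed to 2.09 to 5.33 CPM in ddm1, 0.516 to 2.82 CPM in F1 and 0.252 to 9.41 CPM in WT. The part of cell makeup in the lower F1 levels was not tested.

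Genes of the circadian clock also separated F1 from the other genotypes. They were looked up after the values of the photosynthesis genes had been seen. CCA1, a morning-phased repressor, had 29.9, 30 and 32.5 CPM in ddm1, 3.29, 3.90 and 3.75 CPM in F1 and 46.8, 63.7 and 54.3 CPM in WT leaves. TOC1, an evening-phased repressor, had 3.44, 4.63 and 4.52 CPM in ddm1, 102, 108 and 81.9 CPM in F1 and 5.24, 3.99 and 5.58 CPM in WT leaves. The F1 libraries had about the same low CCA1 and high TOC1 level in all 3 replicates. In F1 against WT, CCA1 and its partner LHY fell (-3.91, SE 0.21, adjusted p = 2.77e-06 and -6.65, SE 0.33, adjusted p = 2.54e-06). The afternoon and evening genes PRR5, TOC1, GI, ELF4 and LUX rose, with log2 fold changes between 2.14 (GI) and 6.04 (LUX). PRR9 and PRR7 were not called, and of all tested loci 9.66% were called lower and 13.5% higher there. In ddm1 against WT 1 of the 9 clock genes, CCA1, was called (-0.83, SE 0.18, adjusted p = 0.0188), beside 0.5% of all tested loci called lower and 6.87% higher. This CCA1 call was lost without any of 4 libraries, WT replicates 2 and 3 and ddm1 replicates 1 and 2. The ELF4 call in F1 against WT was lost without any of 6 libraries, and the other 6 clock calls there held without any single library.

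Transcripts of the dark-induced genes DIN1 and DIN10, which accumulate in leaves kept dark or short of sugar, rose in F1 against WT (4.32, SE 0.86, adjusted p = 0.00752 and 3.77, SE 0.63, adjusted p = 0.00292), and DIN6 was not called there (2.47, SE 1.03, adjusted p = 0.114). Of all tested loci 13.5% were called higher in F1 against WT. DIN1 had 4.07, 10.6 and 2.90 CPM in ddm1, 607, 553 and 115 CPM in F1 and 25.8, 5.89 and 32.4 CPM in WT leaves. F1 replicate 3, the F1 library with the highest level of 31 of the 32 photosynthesis genes, had the lowest F1 level of DIN1, as it had of DIN6 and DIN10. The time of day and light at harvest were not given in the sources used here, so they cannot be told apart from genotype. Their part in the F1 levels was not tested.

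**Figure D5:**
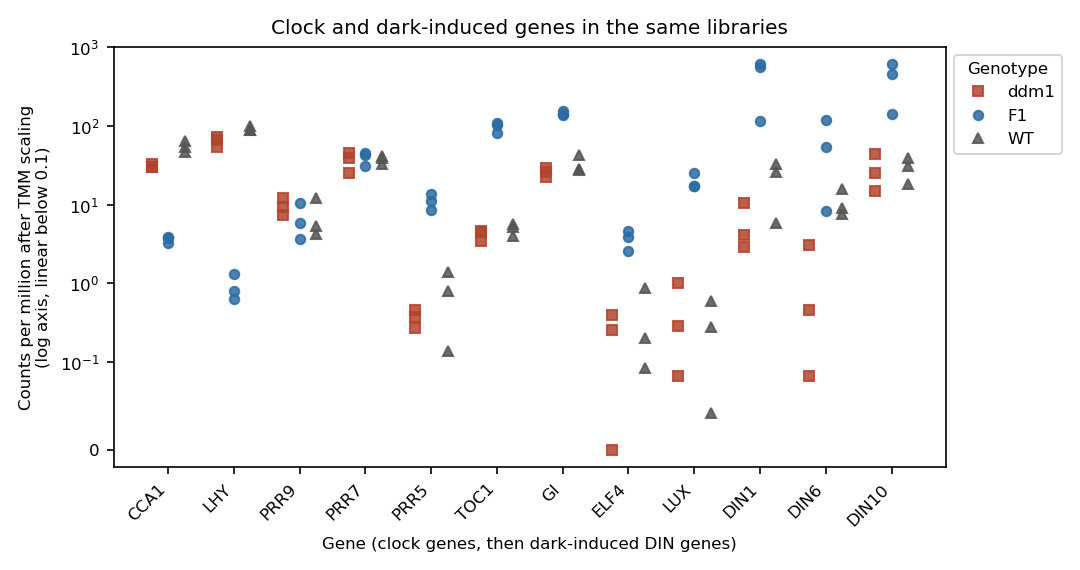
Points give the level of 9 clock genes and 3 dark-induced genes in each library, in CPM (log axis, linear below 0.1). F1 points lie below all others for CCA1 and LHY and above all others for PRR5, TOC1, GI, ELF4, LUX, DIN1 and DIN10.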

How the data were processed

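RNA-seq of leaves was deposited as 1 table per library. RNA was depleted of rRNA and made into directional libraries read as single ends of 50 bp, per the labels' protocols. The deposited tables hold estimated counts and TPM for each of 33602 targets, in kallisto's format per the file headers. Tools named without a role in the submitters' processing notes are DESeq2 1.22.2, R 3.5.1, R 3.6.1, kallisto 0.46.0, deepTools and STAR, with the build TAIR10. The kallisto index, strand and fragment choices were not given in the sources used here, although target length minus effective length was 179 in the deposited tables.

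Estimated counts were rounded and tested with edgeR 4.0.16 in R 4.3.3 (robust quasi-likelihood F test, TMM scaling, filterByExpr with a minimum count of 10, all 9 libraries in 1 fit). P-values were adjusted by Benjamini-Hochberg over the 18216 tested loci, and a call means an adjusted p under 0.05. Where no other tool is named, adjusted p-values come from edgeR, and values given in brackets after a gene are log2 fold changes with their standard errors (SE, the log2 fold change divided by the root of F) and adjusted p. CPM are estimated counts scaled to a total of 1e6 over the 18216 tested loci with TMM factors. Shares of gene pairs were tested by exact two-sided permutation (scipy 1.17.1). The edgeR step was tested on simulated data. Alternatives were DESeq2 1.42.0 size factors and test, no filter, no organelle and rRNA loci, 2 groups only, limma 3.58.1 on log2(TPM + 1), the replicate number as a block and each library left out.

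Members and lists were chosen with earlier results of these data known, and the clock and dark-induced genes after the values had been seen. The naming rule gave per-library values to every gene called in any comparison, to the gene with the largest change and the highest mean TPM of each role, and to copies of pairs whose shares did not overlap, and named at most 3 called genes per further list and comparison. Outside it, after their values had been seen, PSBTN was given per-library values, and KAT1, ATML1, the markers at 0 and all 12 clock and dark-induced genes were named. No 2 libraries of a genotype agreed within sampling noise (chi-square per locus of 20.4 or more). Coordinates and upstream sequences are from RefSeq's TAIR10.1, in which 32835 of the loci were found. For the lowest values counting error adds to the spread between libraries. The reads carry no molecular identifiers.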

Additional observations from a re-analysis of the deposited data

How the results depend on the processing

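No call on the 32 genes reversed its direction under the alternatives run. With 1 library left out in turn, the number of the 32 genes called ranged from 11 (without F1 replicate 1) to 29 in F1 against WT, where it was 25, from 3 to 27 in ddm1 against F1, where it was 21, and from 11 to 29 in F1 against the mean of ddm1 and WT, where it was 28. In ddm1 against WT it was 0 throughout. Without F1 replicate 2 the 3 counts were 13, 7 and 13. The replicate block left 19, 9 and 23 calls in these comparisons and 0 in ddm1 against WT. Deviations of libraries with the same number had correlations from -0.43 to 0.20 over loci. Between F1 and ddm1 these were 0.06, 0.20 and 0.20, where libraries with different numbers had -0.19 to 0.09. With WT they ran from -0.43 to 0.10, where libraries with different numbers had -0.26 to 0.44. The highest values were those of WT replicate 2 with ddm1 replicate 3 (0.44) and with F1 replicate 3 (0.34). Whether a number marks a shared batch cannot be told from these values. The other alternatives gave 25 to 30, 20 to 30 and 28 to 31 calls. Median log2 fold changes stayed between -2.23 and -1.59 in F1 against WT and between 1.26 and 2.19 in ddm1 against F1, and crossed 0 in ddm1 against WT (-0.37 to 0.29). Loci called lower in F1 against WT numbered 1760, and 877 to 2565 over the alternatives; limma on TPM gave 1305 higher and 2291 lower against 2466 and 1760, with a median log2 fold change over all loci of -0.10 against 0.12. Loci called in ddm1 against F1 numbered 1876 higher (680 to 2855) and 1131 lower (259 to 1646), and loci lower in ddm1 against WT 91 (39 to 233). Against the mean of ddm1 and WT they were 2692 higher (1248 to 2966) and 1877 lower (815 to 2799). With 3 libraries a genotype, what the test could call depended on spread as well as on size. In F1 against WT, PSBO1 (-1.04) and PSBQ2 (-0.90) were not called, nor were the larger differences of PSBTN (-1.97), FD2 (-1.96) and PSAG (-1.49). LFNR2 (-1.11) was called there. The pair shares had no test that could pass at this size. The fit on 2 groups only does not apply to the mean of ddm1 and WT.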
